A study of Mus musculus with 12 samples.

Results

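The genes described here encode the subunits of oxidative phosphorylation, 98 of the 54532 genes in the count table. They were chosen by symbol among protein-coding genes: mt-Nd, mt-Co, mt-Cytb and mt-Atp genes of the mitochondrial genome (13 genes), and Nduf, Sdh, Uqcr, Cox4 to Cox8 and Atp5 genes of the nucleus (85 genes). The symbol rule did not take Ndufab1 and Cyc1, and it took Cox7a2l, a factor that joins complexes III and IV, and Atp5s, a coupling factor of the ATP synthase. Ndufa4 is grouped with complex I by its symbol, although its protein is now assigned to complex IV.

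The cells were eosinophils sorted from the spleen as cells with high side scatter and 4get fluorescence, from IL-5tg_4get/C57BL/6 mice. These mice carry an interleukin-5 transgene that drives eosinophilia and a GFP reporter of Il4 expression, so every group here, the isotype group included, is of transgenic, reporter-bearing cells. Sorted cells were cultured for 4 h with both 5 µg/mL anti-Siglec-F and 10 ng/mL IL-33, with IL-33, with anti-Siglec-F, or with a rat IgG2a isotype antibody. Each of the 4 groups had 3 RNA-seq libraries. The labels give no animal or culture for a library, so p-values measure library-to-library spread, and this may be technical in part or in whole. Siglec-F is an inhibitory sialic acid-binding receptor of mouse eosinophils, and IL-33 is an alarmin cytokine that activates them through the receptor ST2.

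Oxidative phosphorylation passes electrons from NADH through complex I, and from succinate through complex II, to ubiquinone, and on through complex III, cytochrome c and complex IV to oxygen. Complexes I, III and IV pump protons across the inner mitochondrial membrane, and complex V, the ATP synthase, uses the gradient to make ATP. Complex II is encoded wholly in the nucleus, while the other complexes join nuclear-encoded subunits with a few core subunits that the mitochondrial genome encodes and mitochondrial ribosomes translate. Granulocytes are usually described as having few mitochondria and relying much on glycolysis.

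Total counts ran from 11686603 to 17137988 per library, and 14547 genes passed the expression filter. Libraries 2 and 3 of the group with both stimuli (combined libraries 2 and 3 below) stood apart. At least 1 count was found for 15555 genes in combined library 2 and 29990 genes in combined library 3, against 19138 to 24485 genes in the other 10 libraries. Genes of cytosolic ribosomal proteins took 3.22% and 3.68% of counts in these combined libraries, against 1.69% to 2.59% elsewhere. Mitochondrial rRNA took 0.923% of counts in combined library 2 and 1.2% in IL-33 library 2. Genes annotated as miRNA or rRNA took 1.22% of counts in combined library 3 and 0.986% in anti-Siglec-F library 3, against 0.0578% to 0.269% in the other 10. All 8 eosinophil markers (such as Siglecf, Ccr3, Epx and Prg2) were detected in every library. Their sums ran from 4226 to 11304 CPM (counts normalised to TMM-scaled library sizes), the largest in combined library 3. There Prg2 and Ear6 had 5372 and 2018 CPM, against 658 to 2826 and 259 to 838 CPM with isotype. Siglecf and Ccr3 had 572 and 1328 CPM there, against 789 to 932 and 1633 to 1858 CPM with isotype. With both stimuli against isotype 4 of the 8 markers had positive and 4 negative log2 fold changes, and 0 were called. Summed monocyte and macrophage markers reached 3260 to 4144 CPM in combined libraries, 2521 to 3474 in IL-33 libraries, 2043 to 2377 in anti-Siglec-F libraries and 1582 to 1856 in isotype libraries. Of its 10 genes, Csf1r, Adgre1 and Spic were called higher by edgeR both with both stimuli and with IL-33 alone against isotype, Ccr2 was called lower with both stimuli, and 4 of the 10 had negative log2 fold changes there. Adgre1 and Csf1r made up most of the monocyte and macrophage sums. They averaged 2405 and 1021 CPM with both stimuli, and 1136 and 433 CPM with isotype. The eosinophil markers Siglecf and Ccr3 averaged 878 and 1735 CPM with isotype. Which cells the Adgre1 and Csf1r counts came from was not tested. The complement genes C1qa, C1qb and C1qc, which define tissue macrophages, averaged 0.643 to 1.97 CPM in each group. Erythroid markers summed to 23.2 and 25.95 CPM in combined libraries 2 and 3, against 5.5 to 18.3 CPM elsewhere. In bulk RNA, fewer cells of a type and less RNA per cell cannot be told apart, and the part of these cell types in the results below was not tested.

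All 13 mitochondrially encoded genes were tested, and several share nearly all of their sequence with a copy in the nuclear genome. Of the 50-base windows in the transcript, 100% for mt-Co2, 99.86% for mt-Co3, 99.53% for mt-Atp6, 98.79% for mt-Nd4l and 97.99% for mt-Nd3 were also present in another annotated transcript, a run of unprocessed pseudogenes on chromosome 1. The shares were 62.23% for mt-Nd4 and 51.14% for mt-Co1, 8.19% for mt-Nd2 and 7.61% for mt-Nd5, and 0% for mt-Cytb, mt-Nd1, mt-Nd6 and mt-Atp8. To let the twins be compared, the sequences that follow, in the sense of the mitochondrial gene, are 90 bases of mt-Co2 (chrMT:7308-7397, plus strand, GRCm38), which Gm28661 (chr1:24614885-24615565, minus strand) holds without a difference, and the first 90 bases of mt-Nd3 (chrMT:9459-9548, plus strand) beside those of Gm28438 (chr1:24612775-24613119, minus strand). Capitals mark the base that differs, the substitution T3C counted from the first base of mt-Nd3 (mt-Nd3 base first), which is the only difference over the 345 bases compared.

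mt-Co2 and Gm28661: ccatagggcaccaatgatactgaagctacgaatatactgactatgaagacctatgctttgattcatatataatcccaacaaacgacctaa
mt-Nd3: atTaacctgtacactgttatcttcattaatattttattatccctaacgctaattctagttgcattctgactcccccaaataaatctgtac
Gm28438: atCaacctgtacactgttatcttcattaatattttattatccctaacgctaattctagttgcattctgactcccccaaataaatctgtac

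The counts were divided between the twins in differing ratios. Over the 12 libraries mt-Co2 had 4418 counts and Gm28661 had 5896, mt-Atp6 had 2703 and its copy Gm10925 3729, mt-Co3 had 2976 and its copy Gm28437 2876, and mt-Nd4l had 643 and its copy Gm10222 543. For the printed pair, mt-Nd3 had 2250 counts and Gm28438 had 376. By contrast mt-Co1, which aligns over 492 bases with Gm29216 at 98.78% identity, had 976821 counts against 2816, and mt-Nd4 had 159891 against 1321 for Gm28439. How reads that map to several places were counted is not given in the sources used here. The levels of mt-Co2, mt-Co3, mt-Atp6, mt-Nd4l and mt-Nd3 are therefore uncertain. For mt-Cytb, mt-Nd1, mt-Nd2, mt-Nd5, mt-Nd6 and mt-Atp8 little or no sequence was shared with another annotated transcript. Only annotated transcripts were searched, so a nuclear copy outside them, for mt-Atp8 or another gene, would not be seen. On chromosome 1 the stretch between the copies of mt-Atp6 (ending at 24614651) and mt-Co2 (starting at 24614885) lay outside the copies found. The level of mt-Atp8 is therefore uncertain as well.

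Set per kilobase of gene length, the mitochondrial transcripts as counted spanned over 3 orders of magnitude. The part of sequence copies in this span was not tested. mt-Co1, the catalytic subunit of complex IV, had the highest level, a mean of 3840 CPM per kb over the 12 libraries, followed by mt-Cytb of complex III at 1688 CPM per kb and mt-Nd1 of complex I at 1287 CPM per kb. The other complex I genes mt-Nd4, mt-Nd2, mt-Nd6 and mt-Nd5 lay between 523 and 712 CPM per kb. The low end held the genes with copies, mt-Nd3 at 40.4, mt-Co2 at 39.6, mt-Atp6 at 24.2, mt-Co3 at 23.1 and mt-Nd4l at 13.5 CPM per kb, and mt-Atp8 at 3.36 CPM per kb, a subunit of the ATP synthase with 114 counts in all.

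Levels of nuclear subunits differed by complex, and the highest exceeded the counted levels of the low-end mitochondrial genes, which are uncertain where copies exist. The median level over the genes tested was 21.1 CPM per kb for complex I (36 genes), 32.2 for complex II (4), 38.0 for complex III (8), 59.2 for complex IV (12) and 31.9 for complex V (17). The deposited gene length used here can exceed the longest annotated transcript, with 4237 against 1916 bases for Atp5b and 1550 against 765 for Cox4i1. For mt-Co1 both are 1545 bases, so the order of levels between genes and complexes is approximate. Cox6a1 and Cox8a, small subunits of complex IV, stood highest at 336 and 258 CPM per kb, followed by Cox6b1 at 122 and Cox4i1 at 120 CPM per kb. Atp5b and Atp5a1, the catalytic beta and the alpha subunit of the ATP synthase, reached 113 and 109 CPM per kb. In complex I the highest was Ndufa1 at 87.3 CPM per kb. The lowest were Ndufs1, a core subunit with iron-sulfur clusters, at 5.49, Ndufb5 at 4.46 and Ndufb2 at 0.827 CPM per kb. Of the nuclear genes, 33 of 85 shared some 50-base windows with another transcript and 0 shared over 50%, the largest shares being 36.98% for Ndufb4 and 35.81% for Ndufs3.

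**Figure D1:**
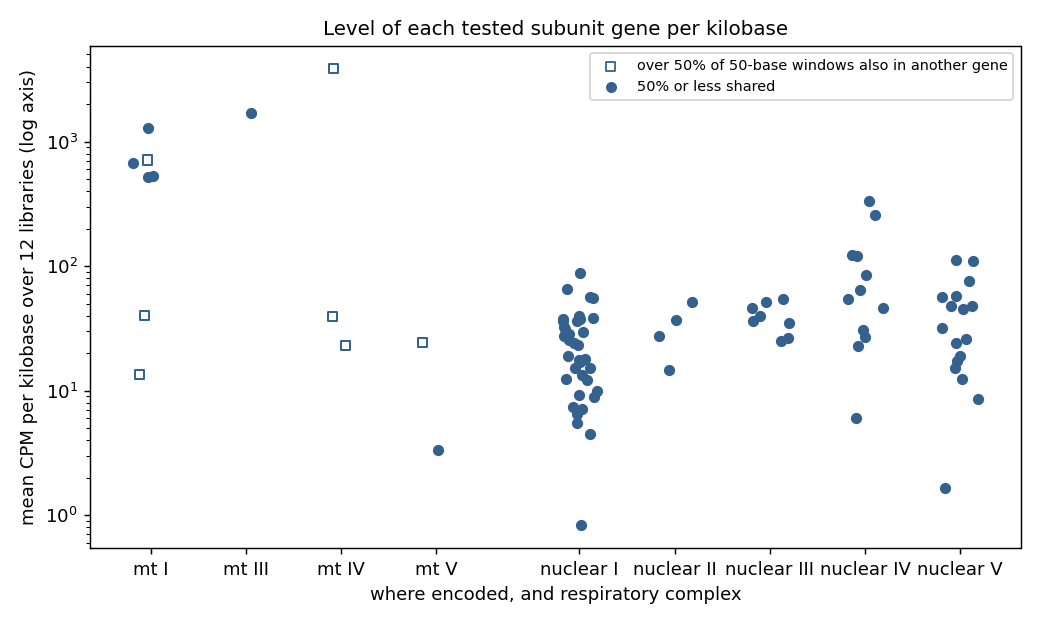
Mean level of each of the 90 tested subunit genes over 12 libraries, in CPM per kilobase of gene length on a log axis, by where the gene is encoded and by respiratory complex; 1 point is 1 gene, and open squares share over 50% of their 50-base windows with another gene. mt-Co1 stands at 3840 CPM per kb, and nuclear genes run from 0.827 to 336 CPM per kb.

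Where a subunit has isoforms, the widely expressed form had most of the counts. Cox4i2, the hypoxia-linked form of subunit 4, had 68 counts over the 12 libraries, 2.52 CPM in combined library 3 and at most 0.79 CPM elsewhere, against 108 to 370 CPM for Cox4i1. The muscle forms Cox6a2 and Cox8b had 48 and 12 counts in all, and Ndufa4l2, a HIF target that replaces Ndufa4 in hypoxia in other cells, had 5. Cox6b2, Cox7b2 and Cox8c, known from testis, had 64, 4 and 4 counts. These 7 genes and a second identifier of Atp5o with 0 counts did not pass the filter and were not tested. Cox7a1, the heart and muscle form of subunit 7a, did pass, at 1.68 to 5.72 CPM per library, against 21.9 to 107 CPM for Cox7a2, the form found in most tissues.

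With both stimuli, nuclear subunit transcripts lay above the isotype group in 2 of the 3 libraries and close to it in the third. Uqcrq, a small subunit of complex III, had 48.7, 78.7 and 113 CPM in combined libraries 1, 2 and 3, against 37.0, 39.6 and 37.4 CPM in isotype libraries 1, 2 and 3. Every combined library was above every isotype library, with a log2 fold change of 1.08 (SE 0.32), and the adjusted p of edgeR's quasi-likelihood test was 0.0512. Cox7a2 had 35.4, 74.2 and 107 CPM with both stimuli, against 29.7, 36.9 and 36.2 CPM with isotype. Its groups overlapped through combined library 1, and its log2 fold change was 1.08 (SE 0.35, edgeR adjusted p = 0.0646). Cox6a1 had 199, 436 and 471 CPM with both stimuli, against 167, 230 and 216 CPM with isotype, and Cox4i1, which carries the allosteric ATP site of complex IV, had 169, 285 and 370 CPM with both stimuli, against 155, 208 and 160 CPM with isotype. The log2 fold changes were 0.85 (SE 0.29) for Cox6a1 and 0.66 (SE 0.27) for Cox4i1, with edgeR adjusted p of 0.0822 and 0.139. In both genes the first combined library lay inside the isotype range.

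By edgeR, 0 of the 77 nuclear and 0 of the 13 mitochondrial genes passed an adjusted p of 0.05 in this comparison, in which 9.88% of all genes tested did. Unadjusted p under 0.05 was found for 39 nuclear and 0 mitochondrial genes, all 39 higher, against 13.8% of all genes higher. DESeq2 called 22 nuclear genes, all higher, where it called 10% of all genes higher, and limma voom with library weights called 11, where it called 5.86% higher. Without an expression filter edgeR called 26 nuclear genes and mt-Nd3 higher, with 3.09% of its genes called higher. Libraries of the groups did not overlap for 5 nuclear genes, all higher: Uqcrq, Cox7a1, Cox5a, Ndufa9 and Atp5b, named after their values were seen. That is fewer than the 12% of all genes whose combined libraries were all higher.

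The direction was nearly uniform. Of the 77 nuclear genes, 72 had a positive log2 fold change, against 46.6% of all genes, with a median of 0.59 (range -0.56 to 1.08) beside -0.05 for all genes. The medians were 0.65 for complex III (8 of 8 positive), 0.68 for complex IV (12 of 12), 0.56 for complex V (16 of 17), 0.55 for complex I (33 of 36) and 0.27 for complex II (3 of 4). The 5 genes with a negative value were Ndufb2 (-0.56), Sdha (-0.28), Atp5s (-0.24), Ndufv1 (-0.03) and Ndufs1 (-0.03), named after their values were seen.

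Values differed among the core subunits of complex I. Among the nuclear core subunits, Ndufv2, which holds a 2Fe-2S cluster, had a log2 fold change of 0.58, Ndufs8 0.54, Ndufs7 0.41 and Ndufs3 0.41, while Ndufs1 and Ndufv1, the subunit that binds NADH, each had -0.03. Ndufs7, next to the ubiquinone site, had 29.0, 69.7 and 76.5 CPM with both stimuli, against 39.2, 54.8 and 37.5 CPM with isotype. The first combined library was the lowest of these and the other 2 the highest. Ndufs1 had 47.6, 41.8 and 47.8 CPM with both stimuli, against 43.0, 47.8 and 49.3 CPM with isotype, and these groups overlapped. The 29 supernumerary subunits tested, which surround the core, had a median log2 fold change of 0.56 and the 7 core genes one of 0.41.

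The 4 subunits of complex II did not share a direction. Sdha, the flavoprotein that oxidises succinate, had 114, 85.9 and 97.5 CPM with both stimuli, against 120, 114 and 127 CPM with isotype. Of the combined libraries the first overlapped the isotype range and the other 2 were below it, and the log2 fold change was -0.28 (SE 0.14, edgeR adjusted p = 0.237). Sdhb, the iron-sulfur subunit that Sdha passes electrons to, had 71.3, 121 and 123 CPM with both stimuli, against 71.5, 80.6 and 76.5 CPM with isotype. The last 2 of its combined libraries were above all isotype libraries and the first was below them, with a log2 fold change of 0.47 (SE 0.20, edgeR adjusted p = 0.156). The membrane anchors Sdhc and Sdhd had log2 fold changes of 0.31 and 0.22.

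The combined libraries differed from each other over the nuclear genes as a set. The median deviation of the 77 nuclear genes from the isotype mean, in log2 CPM, was -0.07, 0.64 and 1.01 in combined libraries 1, 2 and 3. It was -0.13, 0.02 and -0.54 in the IL-33 libraries, -0.04, -0.37 and 0.20 in the anti-Siglec-F libraries and -0.11, 0.15 and -0.04 in the isotype libraries. Combined library 3 was the highest of the 12 for 67 of 77 nuclear genes, against 21.1% of all genes tested, and combined library 1 for 0. Values above the isotype range were found for 6, 67 and 73 of the 77 genes in combined libraries 1, 2 and 3, against 29.2%, 34.5% and 37.3% of all genes. IL-33 library 3 and anti-Siglec-F library 2 were below the isotype range for 64 and 66 genes, against 32.9% and 30.5% of all genes. The median SD of a subunit gene within a group, in log2 CPM, was 0.586 for both stimuli, 0.307 for IL-33, 0.30 for anti-Siglec-F and 0.165 for isotype.

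Cytosolic ribosomal protein genes deviated in the same libraries as the subunits. The 91 cytosolic ribosomal protein genes had median deviations of -0.16, 0.80 and 1.13 in combined libraries 1, 2 and 3, and -0.16, 0.14 and -0.41 in the IL-33 libraries. Their part in the fold changes was not tested. Without combined libraries 2 and 3 the group has 1 library, which is then assumed to vary like the other groups. The median of the nuclear genes against isotype was then -0.04, with 32 of 79 positive. Without combined library 1 instead, 53 nuclear genes were called, where 9.9% of all genes were called higher, with a median of 0.83. Without combined library 3 the median was 0.29 and 0 were called.

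**Figure D2:**
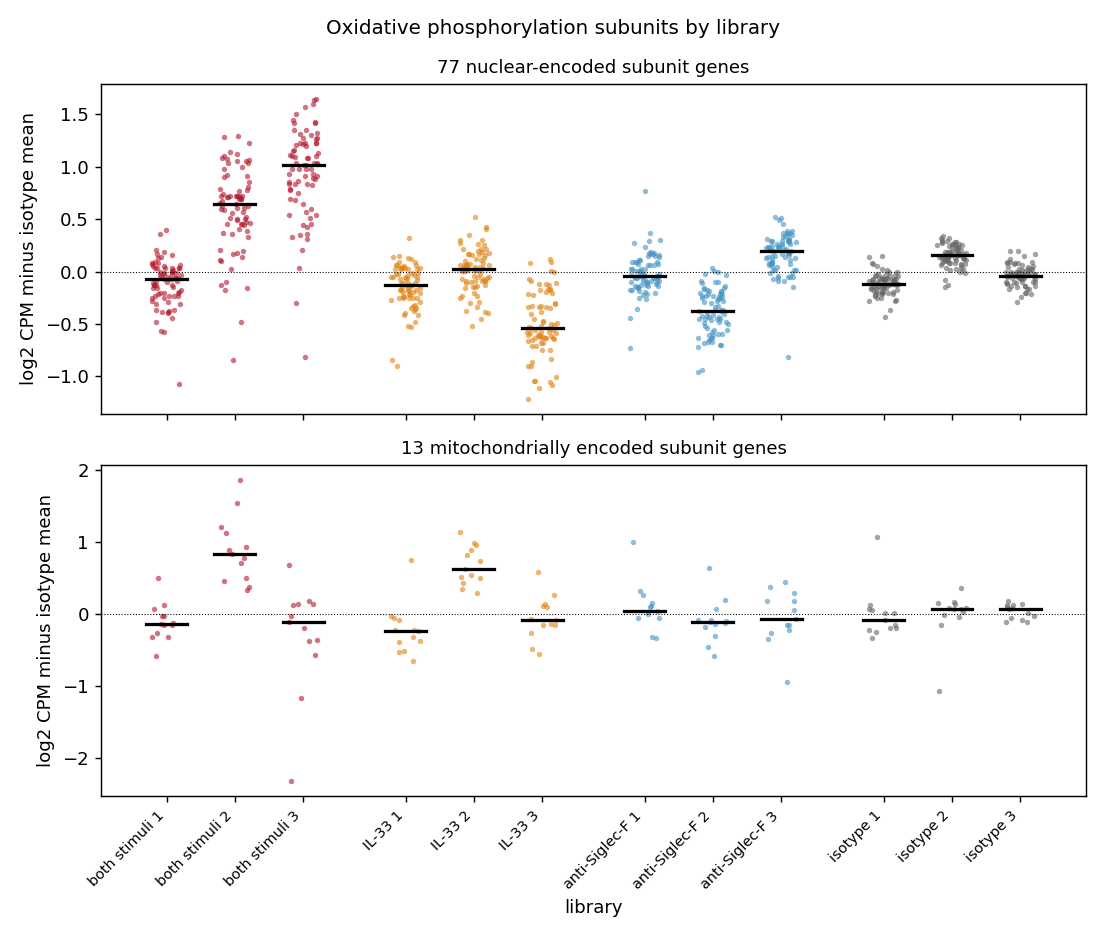
Deviation of each tested gene from its isotype mean in log2 CPM, by library, for 77 nuclear genes (top) and 13 mitochondrial genes (bottom); points are genes and bars are medians. Nuclear genes stand at medians of 0.64 and 1.01 in combined libraries 2 and 3 and at -0.07 in combined library 1, and mitochondrial genes stand apart in library 2 of the combined and of the IL-33 group.

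Set against IL-33 alone, which asks what the antibody added in the presence of IL-33, the combined group had positive log2 fold changes for 75 of 77 nuclear genes, against 47.4% of all genes, with a median of 0.77. edgeR called 0 of these genes, and 0% of all genes, in either direction. Unadjusted p under 0.05 was found for 62 nuclear and 0 mitochondrial genes, all 62 higher, against 10.2% of all genes higher and 7.12% lower, and DESeq2 called 21, all higher, where it called 2.62% higher. The libraries did not overlap for 15 nuclear genes, all higher, against 6.98% of all genes (and 7.07% lower). Atp5k, the e subunit of the ATP synthase, had 10.4, 25.2 and 33.4 CPM with both stimuli, against 10.2, 10.2 and 6.77 CPM with IL-33. All combined libraries were above all IL-33 libraries, the first by a small margin, and the log2 fold change was 1.35 (SE 0.34, edgeR adjusted p = 0.191). Without combined library 1, 64 nuclear genes were called, where 7.3% of all genes were called higher, and the median without combined libraries 2 and 3 was 0.11.

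Set against anti-Siglec-F alone, which asks what IL-33 added in the presence of the antibody, 75 of 77 nuclear genes had positive log2 fold changes, against 47.1% of all genes, with a median of 0.62. edgeR called 0 nuclear and 0 mitochondrial genes, where it called 4.42% of all genes (2.7% higher and 1.72% lower). Unadjusted p under 0.05 was found for 51 nuclear and 0 mitochondrial genes, all 51 higher, against 12.6% of all genes higher, and DESeq2 called 18, all higher, where it called 7.08% higher. Libraries did not overlap for 4 nuclear genes, Cox4i1, Uqcrfs1, Atp5b and Ndufa12, all higher and named after their values were seen, against 10% of all genes. Uqcrfs1, the Rieske iron-sulfur protein of complex III, had 45.1, 72.7 and 90.1 CPM with both stimuli, against 40.2, 38.9 and 42.4 CPM with anti-Siglec-F. Its groups stayed apart, with a log2 fold change of 0.77 (SE 0.22, edgeR adjusted p = 0.0651). Without combined library 1, 58 nuclear genes were called, where 9.23% of all genes were called higher, and without combined libraries 2 and 3 the median was 0.01.

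With IL-33 alone most nuclear subunits had values slightly under isotype. Of the 77 genes, 11 had a positive log2 fold change, against 48.5% of all genes, with a median of -0.19 (range -0.70 to 0.15) beside -0.01 for all genes. edgeR called 0 nuclear and 0 mitochondrial genes, where it called 2.21% of all genes, DESeq2 called 0, and unadjusted p under 0.05 was found for 1 nuclear gene, Cox7a2l, against 7.28% of all genes lower and 6.33% higher. Cox7a2l had 58.8, 62.3 and 51.9 CPM with IL-33, against 77.4, 90.8 and 79.1 CPM with isotype. All IL-33 libraries were below all isotype libraries, with a log2 fold change of -0.51 (SE 0.20, edgeR adjusted p = 0.252). Such a separation held for 17 nuclear genes, all lower, against 13.1% of all genes, and 12 of the 17 belong to complex I, among them Ndufa5, Ndufv3 and Ndufb10, examples chosen after their values were seen. Atp5k had 10.2, 10.2 and 6.77 CPM with IL-33, against 16.1, 15.7 and 12.3 CPM with isotype, and a log2 fold change of -0.70 (SE 0.34, edgeR adjusted p = 0.384).

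The IL-33 values above come from a fit with no replicate block. In alternative fits of this comparison equal replicate numbers were taken as pairs, since the deviations of same-numbered libraries correlated in each pair. With the replicate number as a block, edgeR called 0 nuclear genes over all 12 libraries. In the 2 groups alone it called 2, Cox7a2l and Atp5k, both lower, where it called 4.32% of all genes lower and 4.77% higher. limma voom called 1, Cox7a2l, where it called 7.47% of all genes lower. The median moved to -0.01 without IL-33 library 3, to -0.07 without isotype library 2 and to -0.30 without IL-33 library 2. Markers of eosinophils and neutrophils had negative values in this comparison as well, with 0 of 8 and 0 of 9 positive and medians of -0.36 and -0.35, and IL-33 library 3 had the lowest neutrophil sum, 281 CPM against 471 to 1470 CPM in the other libraries. Their part in the subunit values was not tested.

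Anti-Siglec-F alone showed no direction shared by all complexes. Of the 77 nuclear genes 28 had a positive log2 fold change, against 48.8% of all genes, with a median of -0.04 (range -0.47 to 0.41). Positive values were found for 9 of 36 genes in complex I, 0 of 4 in II, 3 of 8 in III, 7 of 12 in IV and 9 of 17 in V. edgeR called 0 subunit genes and 0% of all genes, 0 subunit genes had an unadjusted p under 0.05, against 2.54% of all genes (0.956% lower), and DESeq2 called 0. Without anti-Siglec-F library 2 the median was 0.08, without anti-Siglec-F library 3 it was -0.16, and without isotype library 2 it was 0.04. The only separated genes were mitochondrial. mt-Co1 had 6749, 5871 and 6354 CPM with anti-Siglec-F, against 5670, 5735 and 5514 CPM with isotype, all higher, against 6.73% of all genes. mt-Nd4l, with 643 counts in all, was lower in all 3 libraries, against 6.51% of all genes.

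The interaction sets the antibody's effect with IL-33 against its effect without it. Its log2 estimate was positive for 76 of 77 nuclear genes, against 48% of all genes, with a median of 0.82 beside -0.03 for all genes. edgeR called 0 nuclear and 0 mitochondrial genes and 0% of all genes, and DESeq2 called 0 subunit genes. Unadjusted p under 0.05 was found for 42 nuclear and 0 mitochondrial genes, all 42 positive, against 5.06% of all genes positive and 7.91% in either direction. The largest estimate was 1.56 (SE 0.47, edgeR adjusted p = 0.583) for Atp5k. Without combined libraries 2 and 3 the median was 0.15. The 6 comparisons share libraries, so their medians are not independent of each other.

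**Figure D3:**
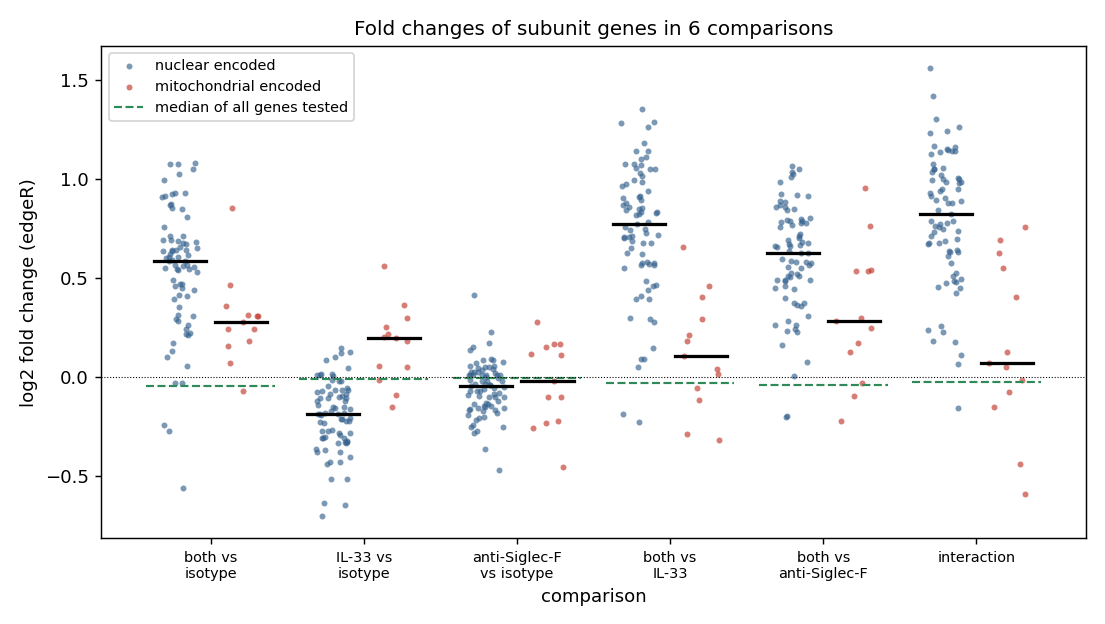
log2 fold change (edgeR) of each tested subunit gene in 6 comparisons, for nuclear and mitochondrially encoded genes; points are genes, bars are medians and dashed lines are the median of all genes tested. Nuclear genes stand at medians of 0.59, 0.77 and 0.62 in the comparisons of the combined group and at -0.19 for IL-33 alone, and 0 of the points passed an adjusted p of 0.05.

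The mitochondrially encoded genes did not follow the nuclear ones library by library. In combined library 2 both sets were high, in combined library 3 only the nuclear set, and in IL-33 library 2 only the mitochondrial set. IL-33 library 2 also had the highest sums of T cell and ILC2 markers, 92.8 CPM against 23.6 to 44.1 CPM elsewhere, and of B and plasma cell markers, 1056 CPM against 520 to 964 CPM elsewhere, and their part was not tested. mt-Cytb, the only mitochondrial subunit of complex III, had 1705, 2976 and 1521 CPM with both stimuli, 1476, 2907 and 1656 CPM with IL-33, 1786, 1637 and 2262 CPM with anti-Siglec-F and 1558, 1840 and 1851 CPM with isotype. mt-Nd1 of complex I had 1069, 2077 and 1069 CPM with both stimuli, 875, 1675 and 1174 CPM with IL-33, 1208, 1017 and 1325 CPM with anti-Siglec-F, and 949, 1197 and 1143 CPM with isotype. In both genes library 2 of the combined and of the IL-33 group was high and the groups overlapped.

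mt-Nd5, another complex I gene, had 947, 1233 and 401 CPM with both stimuli, against 977, 888 and 846 CPM with isotype. Its combined libraries held both the highest and the lowest of the 12 values. mt-Co1 varied less, with 6118, 7273 and 4349 CPM with both stimuli and 5312, 7153 and 5095 CPM with IL-33, against 5670, 5735 and 5514 CPM with isotype. The log2 fold changes of both stimuli against isotype were 0.85 for mt-Nd3, 0.46 for mt-Nd2, 0.36 for mt-Nd1, 0.31 for mt-Nd6, 0.31 for mt-Co2, 0.31 for mt-Nd4l, 0.28 for mt-Co3, 0.24 for mt-Cytb, 0.24 for mt-Atp8, 0.18 for mt-Atp6, 0.15 for mt-Nd4, 0.07 for mt-Co1 and -0.07 for mt-Nd5, and 0 had an unadjusted p under 0.05.

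Combined library 2 was the highest of the 12 for 11 of the 13 mitochondrial genes and IL-33 library 2 for the other 2, against 13.2% and 8.76% of all genes. The median log2 deviation of the 13 genes was -0.15, 0.83 and -0.11 in the combined libraries, -0.24, 0.62 and -0.09 in the IL-33 libraries, 0.03, -0.12 and -0.07 in the anti-Siglec-F libraries and -0.09, 0.06 and 0.07 in the isotype libraries. The median log2 fold change was 0.28 for both stimuli and 0.20 for IL-33 against isotype (12 and 10 of 13 positive), and -0.02 for anti-Siglec-F (6 of 13). It was 0.10 for both stimuli against IL-33, 0.28 against anti-Siglec-F and 0.07 for the interaction. Leaving out 1 library took the median of both stimuli against isotype between -0.11 and 0.44.

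Summed over genes, mitochondrial subunit transcripts took 0.755% to 1.65% of all counts and nuclear ones 0.368% to 0.747%. The ratio of mitochondrial to nuclear subunit counts was 2.6, 2.45 and 1.01 in the combined libraries, 2.29, 3.31 and 3.03 in the IL-33 libraries, 2.77, 3.03 and 2.49 in the anti-Siglec-F libraries and 2.53, 2.28 and 2.51 in the isotype libraries. Combined library 3 was thus the lowest, at a nuclear sum of 8718 CPM and a mitochondrial sum of 8816 CPM, while IL-33 library 2 was the highest, at 4768 and 15791 CPM. Apart from these, the ratio lay between 2.28 and 3.03. Per kilobase, the summed nuclear genes of complex IV reached 999, 1859 and 2364 CPM per kb in the combined libraries, 971, 1075 and 637 in the IL-33 libraries, 1034, 775 and 1224 in the anti-Siglec-F libraries and 929, 1189 and 1026 in the isotype libraries.

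**Figure D4:**
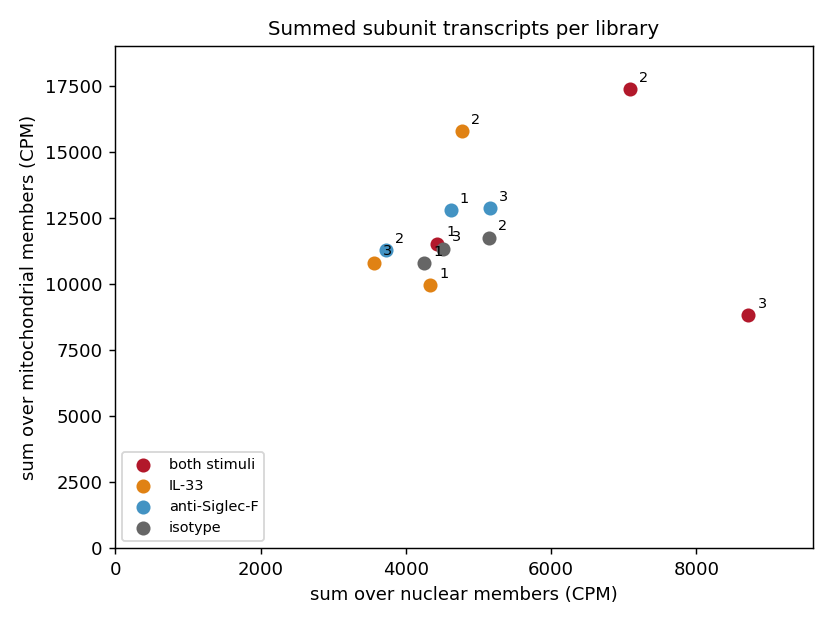
Summed CPM of the nuclear subunit genes (x axis) and of the mitochondrially encoded ones (y axis); 1 point is 1 library, numbered within its group, and the axes start at 0. Combined library 2 is high on both axes, combined library 3 only on the nuclear one and IL-33 library 2 only on the mitochondrial one, and the other 9 libraries lie together.

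Gene length differed between the subunits and other genes, and library deviations differed by length. The nuclear genes tested had a median length of 1675 bases (419 to 8086), against 3713 for all genes tested, and 51, 16, 8 and 2 of them fell into 4 equal length bins of all genes, shortest to longest. In combined library 3 the median log2 deviation of nuclear subunits was 1.09 in the shortest bin, 0.76 in the second and 0.66 in the third, the third holding 8 genes, against 0.09, 0.10 and -0.02 for all genes of those bins. In combined library 2 it was 0.71, 0.51 and 0.54, against 0.15, 0.05 and -0.13 for all genes. In IL-33 library 3 it was -0.61, -0.26 and -0.12, against -0.22, -0.09 and 0.02 for all genes. With a smooth trend on length taken out of each library, limma gave a median of 0.47 for both stimuli against isotype and called Atp5b, Uqcrq and Ndufs4 higher, where it called 7.66% of all genes higher. With the trend kept, limma gave a median of 0.52 and called 0. For IL-33 against isotype the medians were -0.12 without the trend and -0.20 with it, and 0 were called in both.

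**Figure D5:**
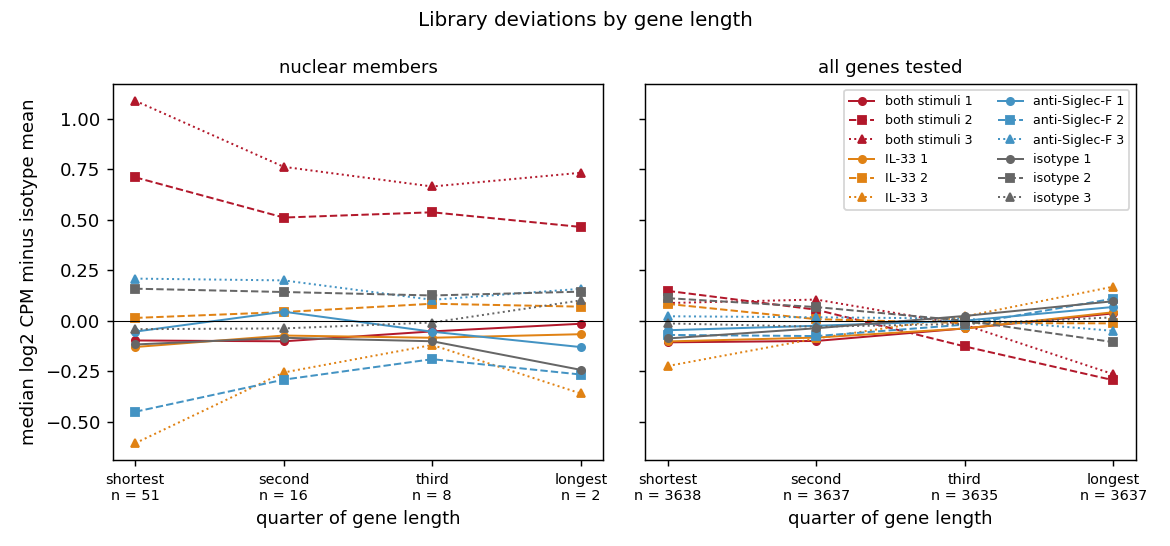
Median log2 CPM minus the isotype mean in 4 bins of gene length, for nuclear subunit genes (left) and all genes tested (right); 1 line is 1 library. Combined libraries 2 and 3 lie above 0.4 for subunit genes in each bin, also where all genes of that bin lie below 0, and the longest bin holds 2 subunit genes.

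Respiratory gene promoters are known for sites of the nuclear respiratory factors, among them NRF1 and the ETS factor GABP (NRF2), and of YY1. RefSeq promoter windows (GRCm38.p6, 250 bases before to 50 after the start) matched 68 of the 84 nuclear symbols. The NRF1 motif (GCGCA, any base, GCGC), searched like the others on both strands, was present for 17 of the 68 genes (25.0%), against 5.2% of 27025 genes. The YY1 motif AAGATGGCG was present for 7 (10.3%, against 1.6%), the GABP motif CCGGAAGT for 5 (7.4%, against 4.3%) and the HIF motif ACGTG for 18 (26.5%, against 21.8%). A match describes the sequence and does not show binding. The sequences that follow are the windows of Cox6a1 (chr5:115348909-115349208, minus strand) and Sdha (chr13:74350191-74350490, minus strand), 2 genes with the NRF1 motif whose values with both stimuli lay on opposite sides of isotype, and of Ndufs7 (chr10:80249199-80249498, plus strand) with the YY1 motif. Capitals mark the motif, at 2 places in Cox6a1, 3 in Sdha and 1 in Ndufs7.

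Cox6a1: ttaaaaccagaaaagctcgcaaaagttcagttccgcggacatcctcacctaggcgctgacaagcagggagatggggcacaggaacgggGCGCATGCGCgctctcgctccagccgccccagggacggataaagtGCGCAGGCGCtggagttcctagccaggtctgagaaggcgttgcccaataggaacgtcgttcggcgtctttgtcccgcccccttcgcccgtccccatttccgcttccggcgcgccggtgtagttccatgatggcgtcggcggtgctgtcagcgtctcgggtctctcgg
Sdha: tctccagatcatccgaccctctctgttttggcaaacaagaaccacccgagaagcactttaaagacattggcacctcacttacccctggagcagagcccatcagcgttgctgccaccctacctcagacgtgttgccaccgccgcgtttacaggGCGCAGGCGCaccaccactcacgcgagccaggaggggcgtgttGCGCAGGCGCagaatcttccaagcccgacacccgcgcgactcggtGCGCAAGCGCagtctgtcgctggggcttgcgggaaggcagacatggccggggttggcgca
Ndufs7: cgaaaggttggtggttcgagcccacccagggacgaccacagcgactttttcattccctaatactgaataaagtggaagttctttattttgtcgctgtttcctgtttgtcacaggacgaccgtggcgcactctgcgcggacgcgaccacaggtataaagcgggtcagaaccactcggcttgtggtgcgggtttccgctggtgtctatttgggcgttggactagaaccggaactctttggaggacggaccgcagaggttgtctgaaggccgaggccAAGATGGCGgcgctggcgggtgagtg

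Fold changes were set beside the motifs. The 17 tested genes with the NRF1 motif had a median log2 fold change of 0.54 for both stimuli against isotype, and the 48 tested genes without it had 0.60. For IL-33 against isotype the medians were -0.22 with the motif and -0.17 without it. With the YY1 motif 7 genes had a median of 0.71 for both stimuli against isotype, and 58 genes without it had 0.57. These are descriptions with no test.

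Some genes that work around the respiratory chain passed the test. With both stimuli against isotype, 22 of the 229 genes of 8 lists were called (9.61%), near the 9.88% of all genes called. Of these 21 were higher (9.17%) and 1 lower, where 5.47% of all genes were called higher and 4.41% lower. Cycs, cytochrome c, which carries electrons between complexes III and IV, averaged 72.0 ± 25.9 CPM with both stimuli and 30.3 ± 3.16 CPM with isotype (SD, n = 3 each), and the log2 fold change was 1.25 with an SE of 0.26 (edgeR adjusted p = 0.0102). Sqor, which feeds electrons from sulfide to ubiquinone, averaged 164 ± 28.9 CPM with both stimuli and 110 ± 5.53 CPM with isotype, with an edgeR estimate of 0.58 in log2 (adjusted p = 0.0367). They were the 2 called of 21 electron carriers and other inputs, a list with a median of 0.35. Idh3a, a subunit of the NAD-linked isocitrate dehydrogenase, averaged 31.7 ± 7.21 CPM with both stimuli and 13.4 ± 2.62 CPM with isotype, an edgeR estimate of 1.24 in log2 (adjusted p = 0.00292), as the 1 called of 17 genes of the TCA cycle and pyruvate dehydrogenase (median 0.13). Of 47 assembly factors 1 was called higher, Sdhaf1, which helps to load the iron-sulfur clusters of complex II, at 4.40 ± 1.48 CPM with both stimuli and 1.76 ± 0.269 CPM with isotype (edgeR adjusted p = 0.0465), and the median was 0.29.

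Genes of protein import and of the mitochondrial ribosome were also among those called, all higher. The counts of this paragraph stand beside 5.47% of all genes called higher. Of 22 import genes 5 were called, with a median of 0.69, among them Tomm20, a receptor of the outer membrane, at 98.9 ± 32.5 CPM with both stimuli and 51.7 ± 4.39 CPM with isotype (log2 fold change 0.94, edgeR adjusted p = 0.0128), and Timm17a, Timm17b and Timm23 of the inner membrane channel (0.79, 1.04 and 0.74). Of 77 mitochondrial ribosomal proteins 6 were called, with a median of 0.45, the largest being Mrpl54 (1.33), Mrps18b (1.09), Mrpl20 (1.06) and Mrpl17 (1.04). Of 28 genes of mitochondrial DNA maintenance and expression 1 was called, Fastkd2, which binds mitochondrial ribosomal RNA, at a log2 fold change of 1.12, and the median was 0.14. Like the subunits, the ribosomal proteins of mitochondria had median deviations of -0.10, 0.64 and 0.74 in combined libraries 1, 2 and 3.

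Among regulators of respiratory genes, 3 of 10 were called higher with both stimuli: Pprc1, a coactivator related to PGC-1, at 44.0 ± 6.62 CPM with both stimuli and 25.9 ± 3.83 with isotype (log2 fold change 0.76), Hif1a, the oxygen-regulated factor, at 784 ± 205 CPM with both stimuli and 473 ± 57.5 with isotype (0.73), and Gabpb1, a subunit of GABP, at 45.7 ± 2.50 CPM with both stimuli and 30.5 ± 1.27 with isotype (0.58). Of 7 HIF-linked mitochondrial genes, Bnip3, a mitophagy receptor, had a log2 fold change of 1.69 and Fam162a one of 1.66, both called higher, and Bnip3l, a related receptor, was called lower at -0.69. Bnip3 averaged 25.8 ± 16.2 CPM with both stimuli and 7.96 ± 1.65 CPM with isotype, and its groups overlapped. Of all genes, 5.47% were called higher and 4.41% lower in this comparison. Without combined library 1 edgeR called 77 of the 229 genes, where it called 9.9% of all genes higher and 9.19% lower. It called 14 and 9 without combined library 2 or 3, where 4.94% and 3.19% of all genes were called higher, and 5, 13 and 4 without isotype library 1, 2 or 3, where 2.16%, 3.17% and 2.06% were. With combined libraries 2 and 3 left out the group has 1 library, which shows no spread, so only log2 fold changes are given. They were 1.15 for Hif1a, 0.72 for Gabpb1, 1.81 for Bnip3 and 0.95 for Pprc1. For Cycs the value was then 1.05, for Idh3a 0.90, for Fam162a 0.93, for Tomm20 0.48 and for Mrpl54 0.56. Over 19 settings, the main one included, Hif1a was called in 12, Bnip3 in 11, and Gabpb1 and Pprc1 in 15 each.

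With IL-33 alone 2 of these 229 genes were called (0.873%), where 1.46% of all genes were called higher and 0.749% lower. Pprc1 averaged 52.0 ± 3.10 CPM with IL-33 and 25.9 ± 3.83 CPM with isotype (log2 fold change 1.00, edgeR adjusted p = 0.0143), and Mxi1, a MYC antagonist linked to HIF, averaged 97.5 ± 15 CPM with IL-33 and 158 ± 8.54 CPM with isotype (-0.70, edgeR adjusted p = 0.0455). Leaving out 1 library gave 0 to 3 calls, 0 without IL-33 library 1, isotype library 1 or isotype library 3, where 0.694%, 0.636% and 0.679% of all genes were called higher. With both stimuli against anti-Siglec-F alone 7 were called (3.06%), all higher, where 2.7% of all genes were: Bnip3 (log2 fold change 1.91), Fam162a (1.68), Mrpl54 (1.29), Timm17b (1.08), Mrpl45 (0.95), Tomm20 (0.94) and Timm17a (0.72). Without combined library 1 there were 73 calls, where 9.23% of all genes were called higher and 9.35% lower, and without combined library 2 there were 6, where 2.59% were called higher. Without combined library 3 there were 0, where 0.997% were called higher, and without any 1 anti-Siglec-F library there were 0, where 0.645% to 0.996% were. For anti-Siglec-F against isotype, both stimuli against IL-33 and the interaction edgeR called 0 of these genes and 0% of all genes, and DESeq2 called 0, 28 and 0 of them, the 28 where it called 2.62% of all genes higher and 0.612% lower. Unadjusted p under 0.05 was found for 3 (1.31%), 87 (38.0%) and 38 (16.6%) of the 229 genes in the same order, against 2.54%, 17.4% and 7.91% of all genes.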

How the data were processed

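RNA-seq libraries of cultured mouse splenic eosinophils were analysed from the deposited table of raw counts per gene. Per the submitters' processing notes, the authors used fastp, FastQC 0.11.8, STAR 2.6.1d, featureCounts 1.5.0-p3 and DESeq2, with build mm10. The annotation release, the strand setting and the treatment of multi-mapped reads are not stated there.

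Counts were analysed with edgeR 4.0.16 (TMM, filterByExpr, quasi-likelihood F test) in 1 fit of all 12 libraries in 4 groups, with Benjamini-Hochberg adjustment over 14547 genes and a threshold of 0.05. The standard error is the fold change divided by the square root of F. CPM used TMM-scaled totals, and levels between genes were divided by the deposited gene length. Alternatives used DESeq2 1.42.0 and limma 3.58.1 under R 4.3.3. The test was checked on simulated data. Shared 50-base windows came from GENCODE M21 transcripts and promoters from RefSeq, both on GRCm38.

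The members, lists and alternatives were chosen with earlier results of these data known. Genes named were the mitochondrial genes, the core of complex I, complex II, isoform pairs, called members, up to 4 called genes of each list per comparison, and the 3 highest and lowest levels of each complex; not every gene under this rule is reported here, and others are marked in the text, or given as examples of the largest estimates. Equal replicate numbers of IL-33 and isotype libraries correlated in their deviations (r = 0.24, 0.24 and 0.17), so these were taken as pairs in alternative fits. The main fit had no replicate block. Other group pairs did not meet this rule, and fits of them with a replicate block entered equal numbers all the same. Counting intervals do not cover the spread between libraries.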

Additional observations from a re-analysis of the deposited data

How the results depend on the processing

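Without combined libraries 2 and 3 the median log2 fold change of nuclear subunit genes was -0.039 for both stimuli against isotype, 0.11 against IL-33, 0.0070 against anti-Siglec-F and 0.15 for the interaction. Leaving out 1 library gave nuclear medians of 0.29 to 0.83 for both stimuli against isotype, 0.50 to 1.03 against IL-33, 0.35 to 0.86 against anti-Siglec-F and 0.59 to 1.05 for the interaction. It gave -0.30 to -0.01 for IL-33 against isotype and -0.16 to 0.08 for anti-Siglec-F against isotype. The mitochondrial medians were -0.11 to 0.44, -0.30 to 0.41, -0.15 to 0.43 and -0.33 to 0.42 in the first 4 comparisons, -0.11 to 0.38 for IL-33 and -0.07 to 0.04 for anti-Siglec-F.

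The count of nuclear genes called for both stimuli against isotype was 0 by edgeR. Percentages here are shares of all genes called higher unless marked. The count became 2 with RLE size factors (Uqcrq and Atp5g1, 6.36%), 26 with no filter (3.09%), 4 with a mean of at least 5 CPM (10.9%) and 22 with DESeq2 (10%). It was 11 with limma voom (5.86%), 1 with mitochondrial genes taken out of the totals (6.03%) and 3 with the length trend removed (7.66%, added after seeing the data). With 1 library left out it was 0 to 53 (9.9% for the 53). Against IL-33 it became 43 with no filter (1.44%), 21 with DESeq2 (2.62%) and 0 to 64 with 1 library left out (7.3% for the 64). Against anti-Siglec-F it became 29 with no filter (2.56%), 1 (Uqcrfs1) with the stricter filter (5.66%) and 18 with DESeq2 (7.08%). It was 0 to 58 there with 1 library left out (9.23% for the 58). The interaction had 5 with no filter (0.168%, and 0.0726% lower). IL-33 against isotype had 1 with limma voom (7.47% lower). Mitochondrial genes had 1 call, with no filter, for both stimuli against isotype and 1 against anti-Siglec-F. With the replicate block in all 12 libraries 0 subunit genes were called in each of the 6 comparisons. With the replicate block in the groups compared (added after seeing the data) 3 nuclear genes were called for both stimuli against isotype. There 4.13% of all genes were called higher and 2.7% lower. For IL-33 against isotype 2 were called, where 4.77% were called higher and 4.32% lower. For both stimuli and isotype, equal numbers correlated at r = 0.21, 0.17 and -0.23. Outside IL-33 and isotype, here and for the lists below, the block took equal numbers that did not meet the rule for pairs.

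For the lists of other genes, both stimuli against isotype gave 22 calls of 229 genes (9.61%, against 9.88% of all genes). The count was 36 with no filter (3.09% of all genes higher, 2.43% lower), 47 with DESeq2 (10% higher, 6.51% lower) and 35 with limma voom (5.86% higher, 3.93% lower). It was 8 with only the groups compared (3.59% higher, 1.91% lower), 13 with the replicate block in those groups (4.13% higher, 2.7% lower) and 4 to 77 with 1 library left out. IL-33 against isotype gave 2 (against 2.21% of all genes). There were 1 with RLE factors (1.48% higher, 0.681% lower), 6 with no filter (1.17% higher, 0.735% lower) and 4 with the stricter filter (2.97% higher, 1.43% lower). There were 6 with DESeq2 (3.22% higher, 2.32% lower), 20 with limma voom (6.89% higher, 7.47% lower) and 6 without combined libraries 2 and 3 (2.52% higher, 1.77% lower). There were 10 with the replicate block in those groups (4.77% higher, 4.32% lower) and 0 to 3 with 1 library left out. Both stimuli against anti-Siglec-F gave 7, and 26 with no filter (2.56% higher, 1.91% lower) and 14 with the stricter filter (5.66% higher, 3.57% lower). This became 37 with DESeq2 (7.08% higher, 4.1% lower), 2 with only the groups compared (1.46% higher), 3 with the replicate block in those groups (1.82% higher) and 0 to 73 with 1 library left out. Against IL-33 there were 0, and 33 with no filter (1.44% higher), 28 with DESeq2 (2.62% higher) and 0 to 79 with 1 library left out. The interaction had 5 with no filter (0.168% higher, 0.0726% lower). The cause of these differences was not tested. The median SD of subunit genes among combined libraries was 0.586 in log2 CPM, against 0.165 among isotype libraries, and that of all genes was 0.439 and 0.215.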
